A study of Mus musculus with 18 samples.

Results

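The maturing wild-type mouse ventricle was followed here from 3 to 6 weeks of age. The members are libraries, chosen by their labels alone: the 3 WT libraries of 6 weeks and the 3 WT libraries of 3 weeks, 6 of the 18 in the series. All 6 were male mice of the 129SVE background, and the tissue was the mid wall of the left ventricle. The other 12 libraries are WT at 10 weeks and mice labelled KO for muscle LIM protein (gene Csrp3) at 3, 6 and 10 weeks, 3 of each, with the same strain, sex and tissue; the series is about dilated cardiomyopathy that progresses with age. Total RNA was taken from frozen tissue, and the values are sequencing reads per gene. The labels do not say whether replicates were separate animals, so p-values measure only the spread between these samples, which may be technical.

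In the weeks after birth, mouse cardiomyocytes leave the cell cycle and go on growing by enlargement, while fibroblasts, endothelial cells and other cells of the wall divide for longer. Over the same period the heart moves from glucose and lactate towards fatty acids as fuel, replaces fetal by adult isoforms of contractile and mitochondrial proteins, and lays down the collagen network that holds the muscle bundles. Weaning, near 3 weeks, ends the high-fat milk diet.

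From 3 to 6 weeks messenger RNA of mitosis genes fell steeply as a share of the ventricle's counts, and that of collagen genes fell less. Of 41 mitosis genes, 32 fell (78.0%), with a median log2 fold change of -2.03 over the list. Of 39 genes for collagens and their assembly, 16 fell (41.0%), with a median of -0.48. Genes that rose did so by less: the ketone enzyme Bdh1 rose most among metabolic genes, and nuclear oxidative phosphorylation genes had a median of 0.31, with 12 of 55 called higher. With offsets for gene length that median was 0.19, and 7 of the 55 were called higher. A gene is said to have risen, fallen or been called where edgeR's quasi-likelihood test gave a Benjamini-Hochberg adjusted p under 0.05. Of 15778 genes tested, 818 were called (5.18%): 464 were higher at 6 weeks (2.94%) and 354 were lower (2.24%). The median log2 fold change was 0.54 for the genes called higher, -0.89 for those called lower and 0.01 for all genes tested. At over 2-fold, 53 were called higher (0.336%) and 155 lower (0.982%). These counts come from a fit that did not pair libraries by replicate number. With the replicate number as a block, 683 genes were called (407 higher and 276 lower). Of these, 32 were mitosis genes and 13 collagen genes called lower.

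How many genes were called depended on single libraries. Leaving out 3-week replicate 1, 2 or 3 gave 278, 199 or 1313 calls, and leaving out 6-week replicate 1, 2 or 3 gave 213, 643 or 305. Of the 818 genes, 151 were called in all 6 of these fits (71 higher and 80 lower), and 52 were called in none. Where a gene below is said to be called without any 1 library, it is among those 151.

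The labelled tissue was checked against markers. The cardiomyocyte genes were abundant, with Myh6, the main adult myosin heavy chain of the mouse ventricle, at 29027 to 45272 CPM. CPM of a gene are its counts relative to the library's counts of tested genes, scaled by TMM factors. Sums over lists are relative to all counts of the library. Bmp10, an atrial gene, had no count in any of the 6 libraries, and neither had Myh4, a skeletal muscle myosin. The atrial light chain Myl7 was low and uneven, at 6.85, 0.330 and 12.8 CPM at 3 weeks and 1.59, 4.61 and 0.682 CPM at 6 weeks. None of 9 tested atrial genes was called by edgeR, DESeq2 or limma voom, and 1 was higher at an unadjusted p under 0.05. Of 10 cardiomyocyte markers 5 were called higher at 6 weeks (50%, and 0 to 5 in the fits without 1 library), and their sum ran from 81562 to 95416 CPM at 3 weeks and from 101459 to 113320 CPM at 6 weeks, without overlap; its part in the metabolic and contractile increases below was not tested. Marker sums of fibroblasts and endothelium moved little: 14 fibroblast markers summed to 2181 ± 206 CPM (SD, n = 3) at 3 weeks and 2180 ± 125 at 6 weeks, and 14 endothelial markers to 1858 ± 139 and 1742 ± 25.9. In 5 of the 14 endothelial markers the 6-week values lay wholly lower (against 13.1% of all genes), and in 1 wholly higher. Of these 14 edgeR called 0, with 1 higher and 2 lower at an unadjusted p under 0.05. The 12 epicardial and mesothelial markers summed to 59.3 to 98.7 CPM and then to 101 to 149 CPM, without overlap. The members did not all move with the sum. In 2 of them the 6-week values lay wholly higher (against 15.3% of all genes), and in 1, Wt1 (-0.68), wholly lower. Of these 12 edgeR called 0, with 1 higher and 1 lower at that p. Red cell genes took 0.361% ± 0.10 of the counts at 3 weeks and 0.140% ± 0.0312 at 6 weeks, without overlap, with an exact permutation p of 0.1, the smallest that 3 against 3 allows. In bulk tissue, where values are shares of a library, fewer cells of a type, less RNA per cell and more RNA from other cells cannot be told apart.

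The promoters of mitosis genes are shown here because the genes moved together and their promoters share letters. Many genes of mitosis are known to carry a CHR element and CCAAT boxes, which bind the DREAM and MuvB complexes and the factor NF-Y. RefSeq promoters of build GRCm38.p6, from 250 bases before to 50 after the start site, were matched by symbol for 27 of the 32 mitosis genes that fell. The CHR letters TTTGAA, read on both strands, were found in 20 of these 27 promoters (74.1%). They were found in 18.1% of 27025 mouse promoters and in 11.8% of the 11381 matched promoters of genes tested here. The letters CCAAT, on either strand, were in 19 of 27 (70.4%) against 37.9% of all promoters, and both together were in 16 of 27 (59.3%) against 7.12%. Over all tested mitosis genes, called or not, the shares were much the same. TTTGAA was in 25 of 34 matched promoters (73.5%), CCAAT in 25 of 34 (73.5%) and both in 21 of 34 (61.8%). The letters thus belong to the list and do not set apart its members that fell. In the promoters printed here the CHR and CCAAT matches do not overlap. A match is a description, not a site or a cause.

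Each sequence runs 5′ to 3′ along the gene's own strand, and capitals mark TTTGAA or CCAAT and, where the match is on the other strand, TTCAAA or ATTGG. Ccnb2, at chr9:70421505-70421804 on the minus strand, is cyclin B2, a partner of the mitotic kinase. Kif11, at chr19:37376132-37376431 on the plus strand, is the motor that pushes spindle poles apart. Kif23, at chr9:61946750-61947049 on the minus strand, is a motor of the central spindle needed for cytokinesis. Top2a, at chr11:99024140-99024439 on the minus strand, is the topoisomerase that disentangles chromosomes. Birc5, at chr11:117848987-117849286 on the plus strand, is survivin of the chromosomal passenger complex, and is shown as a gene that fell without either motif in the window.
Ccnb2: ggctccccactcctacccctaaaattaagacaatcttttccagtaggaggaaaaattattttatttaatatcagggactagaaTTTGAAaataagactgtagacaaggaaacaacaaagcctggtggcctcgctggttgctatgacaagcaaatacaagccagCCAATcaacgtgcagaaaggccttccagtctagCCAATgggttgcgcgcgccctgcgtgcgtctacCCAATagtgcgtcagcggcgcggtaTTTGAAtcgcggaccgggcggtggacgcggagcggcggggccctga
Kif11: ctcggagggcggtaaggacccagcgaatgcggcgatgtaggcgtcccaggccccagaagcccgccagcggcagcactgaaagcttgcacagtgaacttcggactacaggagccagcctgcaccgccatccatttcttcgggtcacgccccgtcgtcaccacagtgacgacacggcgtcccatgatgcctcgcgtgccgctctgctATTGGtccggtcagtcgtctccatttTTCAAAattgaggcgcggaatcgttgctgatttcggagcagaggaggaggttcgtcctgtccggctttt
Kif23: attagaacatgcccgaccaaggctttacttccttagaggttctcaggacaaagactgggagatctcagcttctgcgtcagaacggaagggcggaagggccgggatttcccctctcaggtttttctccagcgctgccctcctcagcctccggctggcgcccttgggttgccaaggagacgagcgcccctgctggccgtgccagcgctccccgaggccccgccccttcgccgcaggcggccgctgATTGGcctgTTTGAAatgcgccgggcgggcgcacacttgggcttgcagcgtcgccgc
Top2a: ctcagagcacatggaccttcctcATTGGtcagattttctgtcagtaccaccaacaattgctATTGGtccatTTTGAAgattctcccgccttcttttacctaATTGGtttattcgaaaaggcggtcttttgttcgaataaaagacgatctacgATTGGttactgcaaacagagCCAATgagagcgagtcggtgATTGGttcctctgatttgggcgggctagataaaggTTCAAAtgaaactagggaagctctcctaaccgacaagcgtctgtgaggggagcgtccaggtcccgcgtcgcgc
Birc5: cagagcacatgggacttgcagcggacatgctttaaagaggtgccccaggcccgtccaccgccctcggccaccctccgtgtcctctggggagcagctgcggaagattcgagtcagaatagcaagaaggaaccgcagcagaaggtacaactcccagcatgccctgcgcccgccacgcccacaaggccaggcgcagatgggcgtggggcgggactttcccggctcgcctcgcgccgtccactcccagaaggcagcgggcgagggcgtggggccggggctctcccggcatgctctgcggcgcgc
In Ccnb2 the CHR letters begin at 2 places, 5 bases after the start site and at -167, and the CCAAT boxes begin at -21, -54 and -87. In Kif23 the CHR letters begin 3 bases after the start, and in Kif11 they lie 19 bases before it on the other strand. No match in Birc5 says only that these letters are not in this window.

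Among cyclins of this list, Ccnb2 and Ccna2 were called without any 1 library. Ccnb2 was at 7.04, 5.28 and 5.70 CPM in the 3-week libraries and at 1.54, 1.07 and 1.36 CPM in the 6-week libraries. The groups did not overlap, and its log2 fold change was -2.19 ± 0.32 (SE, adjusted p 0.000669). Ccna2, cyclin A2 of S phase and G2, was at 10.8, 7.27 and 7.09 CPM and then at 1.21, 1.2 and 1.68 CPM. Its lowest 3-week value was above its highest 6-week value, and it fell by 2.62 on the log2 scale (SE 0.44, adjusted p 0.00251). Cdk1, the kinase they activate, fell by 2.13, but was called in 3 of the 6 fits that left out a library; without 6-week replicate 1 its adjusted p was 0.0888.

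The proliferation marker Mki67, whose protein coats mitotic chromosomes (chr7:135689784-135716361, minus strand), was at 28.0, 34.6 and 30.7 CPM at 3 weeks and at 5.77, 5.68 and 6.72 CPM at 6 weeks. The 3 values of each age lay close together and far from those of the other. The log2 fold change was -2.36 ± 0.37 (SE, adjusted p 0.00303). In the WT libraries of 10 weeks, Mki67 was at 5.03, 1.85 and 2.09 CPM. Top2a was at 18.4, 21.7 and 17.0 CPM at 3 weeks, against 1.98, 3.63 and 5.19 CPM at 6 weeks. It did not overlap between the ages and fell by 2.40 (SE 0.40, adjusted p 0.00385).

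The spindle and cytokinesis genes fell as far. Aspm, a protein of the spindle poles (chr1:139454772-139494091, plus strand), was at 3.30, 5.14 and 4.31 CPM at 3 weeks and at 0.330, 0.470 and 0.630 CPM at 6 weeks. The groups were far apart, and the log2 fold change of -3.14 ± 0.38 (SE, adjusted p 0.000104) was the largest decrease among the genes named by the rule in the methods. Kif11 was at 5.10, 4.95 and 3.93 CPM and then at 0.879, 0.598 and 0.840 CPM. It fell by 2.6 on the log2 scale (SE 0.40, adjusted p 0.000917). Kif23 was at 9.86, 8.16 and 7.60 CPM and then at 1.54, 1.2 and 2.52 CPM, and fell by 2.29. Birc5 was at 5.39, 3.82 and 4.88 CPM and then at 1.21, 0.427 and 1.26 CPM, and fell by 2.3. None of the 3 overlapped between the ages, whether its promoter held the motifs or not. Aurkb, the kinase of the same passenger complex, fell by 2.58, Nuf2 of the kinetochore by 2.57, and Anln, which organises the contractile ring, fell by 2.38. Each of these, with Ccna2, Ccnb2, Mki67, Top2a and Aspm, was called without any 1 library.

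Over the whole mitosis list, 40 of 41 genes did not overlap between the ages in the direction of a fall (against 13.1% of all genes), and 21 were called without any 1 library. The background share of genes called lower was 2.24%. The 9 members that were not called were Hmmr (-2.23), Cdc25c (-1.54), Plk1 (-1.16, adjusted p 0.0647), Cenpf (-0.94), Incenp (-0.89), Ube2c (-0.88), Mad2l1 (-0.69), Cdc25b (-0.61) and Cenpa (0.18), the centromeric histone and the only member with a positive value. The list summed to 297, 277 and 263 CPM at 3 weeks, 95.6, 99.0 and 112 CPM at 6 weeks, and 88.2, 66.1 and 65.3 CPM at 10 weeks. Most of the difference over these ages thus lay between 3 and 6 weeks. Outside the list, the spindle gene Troap fell by 2.99, Ckap2 by 2.90, the abscission factor Cep55 by 2.86, the MYC-network protein Mxd3 by 2.83, the condensin subunit Ncapg by 2.64 and the mitotic kinase Pbk by 2.56. Kif18b fell by 2.79, and was called in only 1 of the 6 fits that left out a library (adjusted p 0.101 without 6-week replicate 1).

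**Figure D1:**
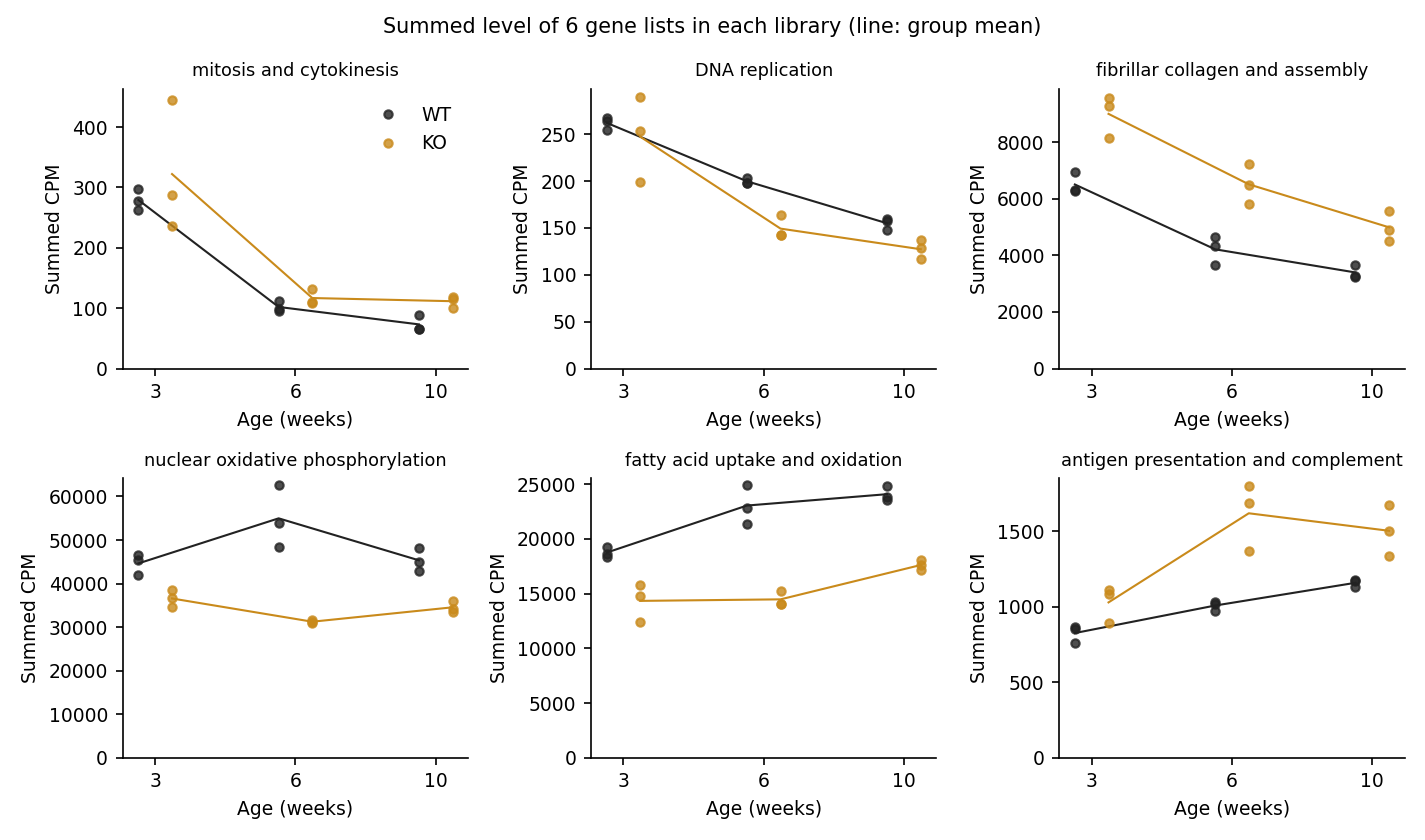
Summed CPM of 6 gene lists (vertical) at 3, 6 and 10 weeks (horizontal, ages evenly spaced) in WT and in mice labelled KO; each point is 1 library and lines join group means. In WT the 3 mitosis sums at 3 weeks (263 to 297 CPM) lie above all sums at 6 weeks (95.6 to 112 CPM), and the collagen sums fall from 6260 to 6946 CPM at 3 weeks to 3670 to 4630 CPM at 6 weeks.

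DNA replication genes moved less than mitosis genes. Of 32 tested, 6 fell (18.8%) and the median was -0.68. In 24 the 6-week values lay wholly below the 3-week values (against 13.1% of all genes), and in 1 wholly above. At an unadjusted p under 0.05, 19 were lower and 1 higher, and DESeq2 called 12 lower. Mcm6, a subunit of the replicative helicase, was at 9.90, 11.8 and 10.1 CPM at 3 weeks and at 3.79, 3.42 and 4.93 CPM at 6 weeks. The groups did not overlap, and it fell by 1.39 (SE 0.22, adjusted p 0.0011). Mcm10, another replication factor, fell by 2.41, and Uhrf1, which keeps DNA methylation through replication, by 1.46. Mcm10 and Uhrf1 were called in 5 and 4 of the 6 fits without a library. The other helicase subunits were not called: Mcm5 had -0.60 (adjusted p 0.121), Mcm3 -0.49 (adjusted p 0.0754), Mcm7 -0.31, Mcm4 -0.27 and Mcm2 0.00. Pcna, the sliding clamp, had -0.17 and was not called either. The list summed to 262 ± 6.36 CPM (SD, n = 3) at 3 weeks and 200 ± 3.14 at 6 weeks. In the fits without 1 library, 1 to 5 members were called. Among inhibitors of the cycle, the pocket proteins Rbl1 and Rb1 fell, by 1.44 and 0.58 (Rb1 in 2 of the 6 fits without a library), while Cdkn1a, which encodes p21, was not called (-0.69, adjusted p 0.061). Hmgb2, a chromatin protein of dividing cells, fell by 1.15, and the nuclear lamin Lmnb1 by 1.07.

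Growth genes expressed from only 1 parental copy, the imprinted genes, were represented by Igf2. This fetal growth factor (chr7:142650766-142666816, minus strand) was at 76.9, 63.6 and 66.3 CPM at 3 weeks and at 27.5, 34.2 and 30.4 CPM at 6 weeks. Every 3-week value was above every 6-week value, and the log2 fold change was -1.17 ± 0.16 (SE, adjusted p 0.000376). Mest, another paternally expressed gene, was at 26.2, 25.1 and 23.8 CPM and then at 6.32, 12.1 and 9.65 CPM, without overlap, and fell by 1.41 (SE 0.24, adjusted p 0.00264). The amino acid transporter Slc38a4 fell by 0.81, and Plagl1, a zinc finger protein of the same network, by 1.07; Plagl1 was called in 2 of the 6 fits without a library (adjusted p 0.0949 without 6-week replicate 1). Of 24 imprinted genes tested, these 4 were called (16.7%) and the median was -0.39. H19, the non-coding RNA next to Igf2, had -0.80 and was not called (adjusted p 0.0886). Igf1, the growth factor of later life, which is not imprinted, was at 10.7, 12 and 12.6 CPM and then at 6.21, 5.13 and 5.46 CPM. It too did not overlap and was called (-1.07 ± 0.24, SE, adjusted p 0.0113), but 2 of the 6 fits without 1 library did not call it (adjusted p 0.0558 without 3-week replicate 2). The receptor genes Igf1r (-0.17) and Insr (-0.05) were not called.

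Collagen genes formed the other large decrease. Col3a1, the chain of type III collagen (chr1:45311538-45349706, plus strand), was at 753, 706 and 766 CPM at 3 weeks and at 284, 348 and 366 CPM at 6 weeks. The groups were wide apart, and the log2 fold change was -1.16 ± 0.16 (SE, adjusted p 0.000666). At 10 weeks it stood at 248, 212 and 203 CPM. Col1a2, of type I collagen, was at 275, 290 and 337 CPM at 3 weeks and at 138, 194 and 189 CPM at 6 weeks. It did not overlap and fell by 0.79 (SE 0.15, adjusted p 0.00418). Col1a1, its partner chain, was at 176, 213 and 290 CPM and then at 86.6, 141 and 136 CPM. Its groups did not overlap, but its replicates varied more: it fell by 0.90 (SE 0.21, adjusted p 0.018), with an adjusted p of 0.0888 without 6-week replicate 1.

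Some genes whose products bind, crosslink or trim collagen fell too. Sparc, a secreted collagen-binding protein (chr11:55394500-55423183, minus strand), was at 1261, 1164 and 1236 CPM and then at 695, 704 and 756 CPM. Its replicates were tight and the groups did not overlap; it fell by 0.76 (SE 0.11, adjusted p 0.000736). Loxl2, a lysyl oxidase that crosslinks collagen, fell by 1.0, and Adamts2, which trims procollagen, by 0.77. Among minor fibrillar, microfibrillar and basement membrane collagens, Col5a1 fell by 0.85, Col6a3 by 0.77 and Col15a1 by 0.73. All 3, with Col3a1, Col1a2, Sparc, Loxl2 and Adamts2, were called without any 1 library. Col5a2 fell by 0.74, but was not called with the replicate number as a block (adjusted p 0.068) or with offsets for gene length (adjusted p 0.0538), and was called in 1 of the 6 fits without a library. Col12a1 had the lowest value of the list, -1.51, and was not called. The enzymes that modify collagen chains in the cell moved little: P4ha1 had -0.03, Plod1 -0.07 and Serpinh1, the collagen chaperone, -0.32, none called. No gene of the 39 rose by edgeR, where 1 was higher at an unadjusted p under 0.05 and 1 by DESeq2. In 28 of 39 the 3-week values lay wholly above the 6-week values (against 13.1% of all genes). In the fits without 1 library, 8 to 13 members were called, the fewest without 6-week replicate 1 (8) and 3-week replicate 2 (9).

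Other matrix genes moved less. Of 39 elastic, matricellular and proteoglycan genes, 7 fell (17.9%) and the median was -0.15. Mfap4, a microfibril protein, was at 29.3, 18.4 and 28.4 CPM at 3 weeks and at 9.07, 12.9 and 14.3 CPM at 6 weeks. Its lowest 3-week value was above its highest 6-week value, and it fell by 1.06 (SE 0.20, adjusted p 0.00516). Aspn, asporin, fell by 1.45, Fbn2, the fetal fibrillin, by 0.97, Mfap2 by 0.92, Mfap5 by 0.80, Fbn1 by 0.70 and Lum, lumican, by 0.63. The 6 besides Mfap4 were not called in every fit without 1 library, and 2 to 6 members were called in those fits. Postn, periostin, was at 55.6, 48.9 and 55.4 CPM and then at 18.6, 22.0 and 22.0 CPM, and its log2 fold change of -1.35 ± 0.39 (SE) was not called (adjusted p 0.0647). Dcn, decorin, had -0.15. Of 34 basement membrane and integrin genes, 4 fell (11.8%); Nid1, which links laminin to type IV collagen, fell by 0.63 and was called without any 1 library. The fibroblast markers Pdgfra and Tcf21, each at -0.11, were not called; of the 14 fibroblast markers, the 3 called lower were matrix genes, Mfap4, Col1a1 and Lum.

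**Figure D2:**
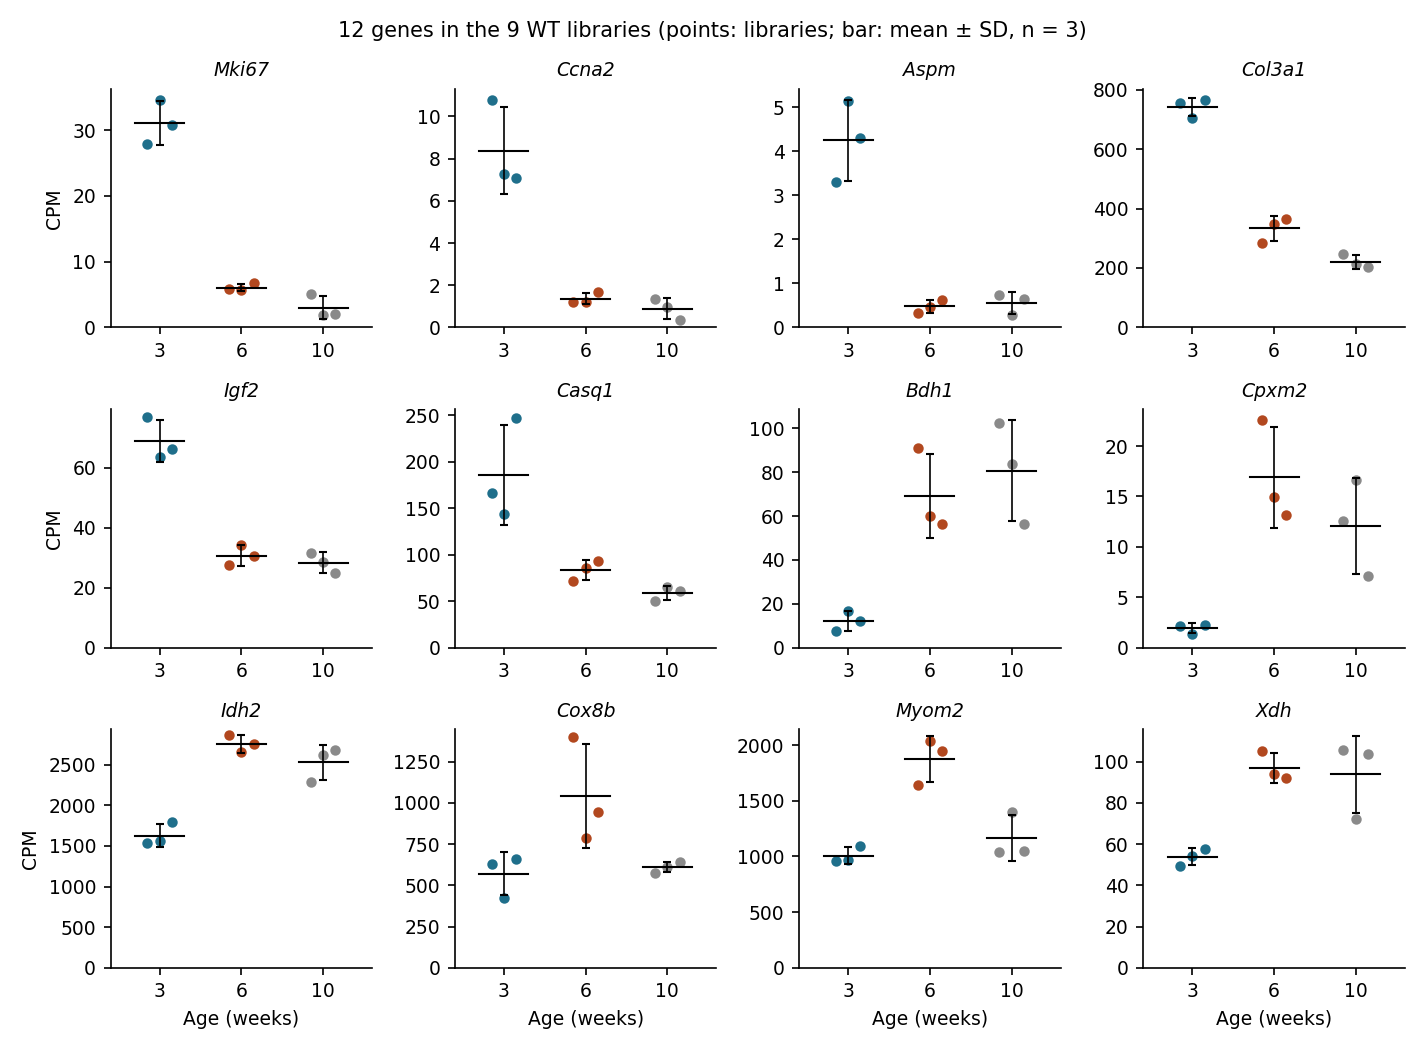
CPM (vertical) of 12 genes at 3, 6 and 10 weeks (horizontal, ages evenly spaced) in WT; each point is 1 library, and bars give the mean ± SD (n = 3). Mki67 drops from 28.0 to 34.6 CPM at 3 weeks to 5.68 to 6.72 CPM at 6 weeks, while Bdh1 climbs from 7.67 to 16.5 CPM to 56.2 to 90.9 CPM.

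Acta2, the smooth muscle actin of vessel walls and activated fibroblasts, was at 749, 769 and 785 CPM at 3 weeks and at 339, 370 and 411 CPM at 6 weeks. The groups did not overlap, and it fell by 1.04 (SE 0.23, adjusted p 0.0179). It was called in 1 of the 6 fits without a library (adjusted p 0.0991 without 6-week replicate 1). Myh11, the myosin of mature smooth muscle, had -0.03 and was not called, and of 14 pericyte and smooth muscle markers Acta2 and Mcam were the 2 that fell (Mcam in 3 of the 6 fits without a library). Other secreted proteins that fell were C1qtnf6, which fell by 1.12, and Fstl1, which fell by 0.96; Fstl1 was not called without 6-week replicate 1 (adjusted p 0.0622).

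Ketone and branched-chain amino acid breakdown had 7 of 25 genes called higher (28.0%, against 2.94% of all genes), with a median of 0.22. Bdh1, which interconverts the ketone bodies in mitochondria (chr16:31422280-31458901, plus strand), was at 7.67, 16.5 and 12.3 CPM at 3 weeks and at 90.9, 59.9 and 56.2 CPM at 6 weeks. The lowest 6-week value was above every 3-week value, and the log2 fold change was 2.5 ± 0.34 (SE, adjusted p 0.00152). Bckdha, a subunit of the branched-chain keto acid dehydrogenase, was at 65.5, 69.4 and 78.4 CPM and then at 140, 132 and 125 CPM. It did not overlap and rose by 0.90 (SE 0.11, adjusted p 0.000104). Bcat2, the mitochondrial transaminase before it, rose by 0.74, and Ivd, which acts after it in leucine breakdown, by 0.56. These 4 were called without any 1 library, while 4 to 8 members were called in the 6 fits (4 without 3-week replicate 1 or 6-week replicate 1).

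The genes of fatty acid oxidation moved by less than 2-fold. Of 34 tested, 9 rose (26.5%) and the median was 0.29; none was lower by edgeR, DESeq2 or limma voom, or at an unadjusted p under 0.05. Between 1 and 8 members were called in the fits without 1 library: 3 without 3-week replicate 1, 2 without 3-week replicate 2, 1 without 6-week replicate 1 and 3 without 6-week replicate 3. Cpt1b, the muscle form of the enzyme that commits fatty acids to mitochondria, was at 96.7, 110 and 113 CPM and then at 142, 146 and 152 CPM, and rose by 0.46 (SE 0.12, adjusted p 0.0246; called in 1 of the 6 fits without a library). Cpt1a, the liver form, had -0.14 and was not called. On a per-length scale, Cpt1b made up 72.8% ± 1.55 (SD, n = 3) of the pair at 3 weeks and 80.2% ± 1.04 at 6 weeks, without overlap. Fabp3, the heart fatty acid binding protein, rose by 0.61 (4 of the 6 fits), while the transporter Cd36 (-0.08) and lipoprotein lipase, Lpl (0.07), were not called. Outside the list, Acad12 rose by 0.88 and Ech1, which isomerises unsaturated fatty acids, by 0.76, both called without any 1 library.

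In the citrate cycle, 3 of 25 genes rose (12%). Idh2, the mitochondrial isocitrate dehydrogenase (chr7:80094846-80115392, minus strand), was at 1532, 1562 and 1790 CPM at 3 weeks and at 2866, 2653 and 2750 CPM at 6 weeks. The groups did not overlap, and the log2 fold change was 0.76 ± 0.11 (SE, adjusted p 0.000666). Pcx, pyruvate carboxylase, rose by 0.72, and both were called without any 1 library. In glucose use, 6 of 31 genes rose (19.4%), with a median of 0.26. Ldhb, the lactate dehydrogenase subunit of heart, was at 1185, 1073 and 1262 CPM and then at 2021, 1559 and 1702 CPM, without overlap, and rose by 0.59 (SE 0.11, adjusted p 0.00417). It was called without any 1 library, but only 1 member was called without 3-week replicate 1 or 2 or without 6-week replicate 1 or 3. Ldha had 0.08, and the share of Ldhb in the pair on a per-length scale was 72.8% ± 1.16 (SD, n = 3) and then 79.0% ± 1.28. The insulin-responsive glucose transporter Slc2a4 rose by 0.46 and was called in 1 of the 6 fits without a library.

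Nuclear genes of oxidative phosphorylation had 12 of 55 called higher (21.8%), and 38 were higher at an unadjusted p under 0.05; none was lower at that p, by edgeR, DESeq2 or limma voom. Of the 55 genes, 53 had a positive value, and in 29 the 6-week values lay wholly above the 3-week values (against 15.3% of all genes). Their median exon length was 1550 bases, and shorter genes were called higher more often, as given below. Cox8b, a muscle subunit of cytochrome oxidase, was at 628, 425 and 662 CPM at 3 weeks and at 1397, 788 and 946 CPM at 6 weeks. Its groups did not overlap, with 6-week replicate 1 far above the other two, and it rose by 0.87 (SE 0.17, adjusted p 0.00694). Cox7a1 was at 684, 473 and 706 CPM and then at 1353, 828 and 1051 CPM, and rose by 0.79 (SE 0.15, adjusted p 0.00519). Cox6a2 rose by 0.74 and the complex I subunit Ndufa3 by 0.80. These 4 were called without any 1 library. Cox6a2 lies within Itgad on the other strand, and since the strand setting of the counting is not given, their reads cannot be told apart. The muscle forms gained share over their widely expressed partners on a per-length scale: Cox8b went from 87.2% ± 0.638 to 90.3% ± 0.862 (SD, n = 3) of its pair with Cox8a, Cox7a1 from 81.6% ± 1.30 to 86.0% ± 0.654 with Cox7a2, and Cox6a2 from 87.0% ± 0.966 to 91.4% ± 0.961 with Cox6a1. No pair overlapped between the ages. The 13 mitochondrially encoded messenger RNAs went the other way, all with negative values (median -0.36), of which edgeR called 0, DESeq2 2 and an unadjusted p under 0.05 marked 4; mitochondrially encoded genes took 15.2% ± 2.34 of the counts at 3 weeks and 12% ± 1.10 at 6 weeks (exact permutation p 0.2).

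Gene length moved with the increases. Genes with exons of up to 1000 bases had a median log2 fold change of 0.18, and genes of over 8000 bases a median of -0.11. Called higher were 67 of 1087 genes of up to 1000 bases and 132 of 2219 genes of 1000 to 2000 bases. Of 2164 genes of over 8000 bases, 22 were called higher. In the shortest class, 6-week replicate 1 lay 0.35 above the mean of the 6 libraries, and 3-week replicate 2 lay 0.23 below it. With an offset for length in each library, 7 oxidative phosphorylation genes were called higher (12 without it), while 32 mitosis genes and 12 collagen genes were called lower (32 and 16 without it). The median of the oxidative phosphorylation list was 0.19 with the offset and 0.31 without it. Without 6-week replicate 1, 3-week replicate 2, 3-week replicate 1 or 6-week replicate 3, the oxidative phosphorylation calls numbered 4, 4, 5 and 5, and without 6-week replicate 2 they numbered 22. The part of length in the result beyond this offset was not tested.

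**Figure D3:**
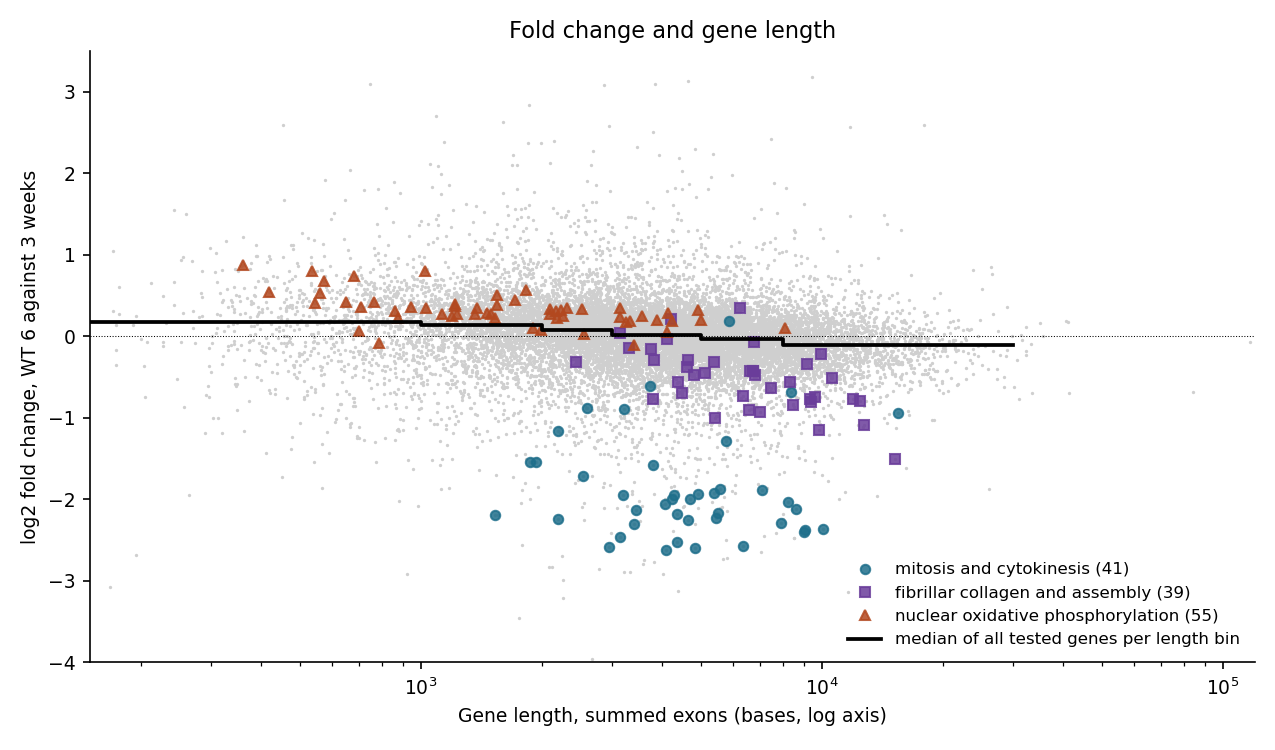
Log2 fold change from 3 to 6 weeks in WT against exon length in bases (log axis); grey points are tested genes, coloured points are mitosis, collagen and oxidative phosphorylation genes, the line is the median of all tested genes in each length class, and 82 genes lie outside the axes. The medians by length class run from 0.18 for the shortest genes to -0.11 for the longest.

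**Figure D4:**
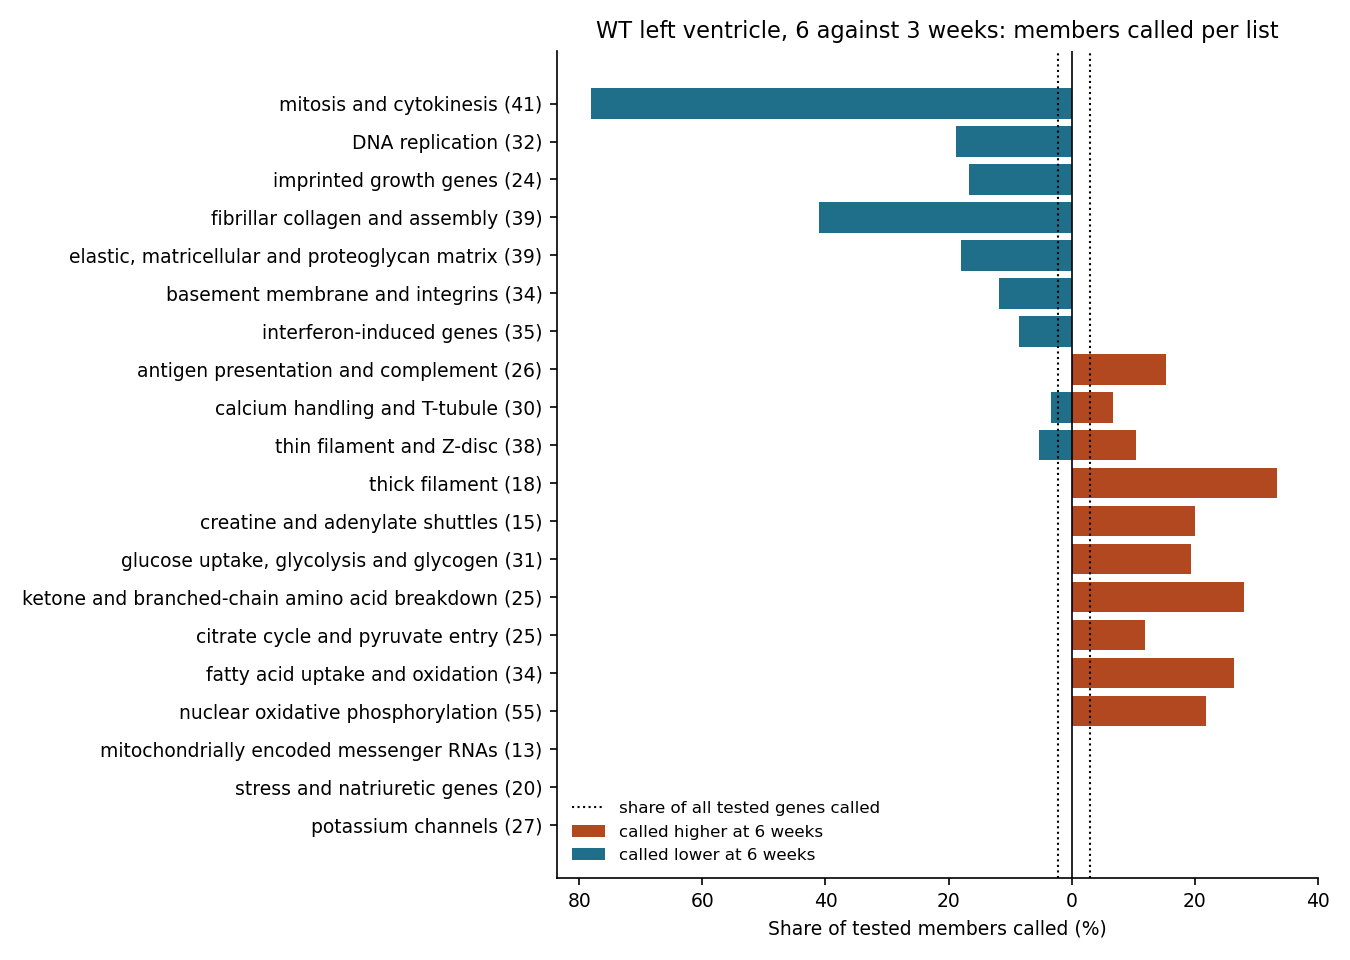
Percent of the tested members of each gene list (number in brackets) called lower (bars to the left) or higher (bars to the right) at 6 than at 3 weeks in WT; dotted lines mark the shares of all 15778 tested genes. The longest bars to the left are mitosis (78.0%) and collagen genes (41.0%), against 2.24% of all genes.

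In the contractile apparatus, 6 of 18 thick filament genes rose (33.3%, against 2.94% of all genes). Myom2, a protein of the M-band that ties myosin filaments together, was at 958, 967 and 1095 CPM at 3 weeks and at 1645, 2038 and 1948 CPM at 6 weeks. The groups did not overlap and it rose by 0.90 (SE 0.13, adjusted p 0.000666). Myl2, the ventricular light chain, rose by 0.55, as did the thin filament protein Tnnt2 (0.55), and Tnni3, adult troponin I, by 0.49. Without 3-week replicate 2 none of these 3 was called: the adjusted p was 0.0884 for Myl2, 0.0802 for Tnnt2 and 0.148 for Tnni3, and Tnni3 was not called with offsets for GC content either (adjusted p 0.101). Thick filament calls numbered 1 without 3-week replicate 2, 6-week replicate 1 or 6-week replicate 3, and 2 without 3-week replicate 1. Trim54, a muscle ubiquitin ligase of the Z-disc and microtubules, was at 103, 109 and 137 CPM and then at 246, 242 and 241 CPM. Its 6-week values were nearly equal, and it rose by 1.06 (SE 0.13, adjusted p 0.000104). Myh6 (0.25, adjusted p 0.26), the slow myosin Myh7 (0.44, adjusted p 0.301) and cardiac actin Actc1 (0.01) were not called. On a per-length scale Myh7 made up 2.46% ± 0.147 (SD, n = 3) of the Myh6 and Myh7 pair at 3 weeks and 2.80% ± 0.153 at 6 weeks. Of the 20 stress and natriuretic genes edgeR called 0; 4 were higher and 1 lower at an unadjusted p under 0.05, and DESeq2 called 3 higher and 1 lower. Nppa, atrial natriuretic peptide, was at 218, 192 and 335 CPM and then at 465, 418 and 467 CPM (0.86 ± 0.31, SE, adjusted p 0.12).

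Of 30 calcium handling genes, 2 rose (6.67%) and 1 fell (3.33%), against 2.94% and 2.24% of all genes, with a median of -0.03. The 1 that fell was Casq1, the skeletal muscle form of the calcium store protein calsequestrin, at 166, 144 and 246 CPM at 3 weeks and at 71.3, 85.8 and 93.2 CPM at 6 weeks. Its groups did not overlap and it fell by 1.15 (SE 0.19, adjusted p 0.00264). Casq2, the cardiac form, had 0.09 and was not called, and the share of Casq1 in the pair on a per-length scale was 19.3% ± 4.61 (SD, n = 3) and then 9.37% ± 1.95. S100a1, a calcium sensor of the ryanodine receptor and calcium pump, rose by 0.71 (SE 0.12, adjusted p 0.00166). Of 27 potassium channel genes edgeR called 0, while 2 were higher at an unadjusted p under 0.05 and by DESeq2. Among receptors of sympathetic signals, Adra1a, the alpha-1A adrenergic receptor, rose by 1.04 (adjusted p 0.0176), and Rgs2, which damps such signals, fell by 0.78 (adjusted p 0.0267); each was lost in most fits without 1 library.

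Antigen presentation genes had 4 of 26 called higher (15.4%). H2-Ab1, a class II chain of antigen-presenting cells, was at 21.5, 24.2 and 23.2 CPM at 3 weeks and at 59.8, 47.9 and 52.0 CPM at 6 weeks. It did not overlap and rose by 1.21 (SE 0.20, adjusted p 0.00222). H2-Eb1, its companion, rose by 1.07, and Cd74, the invariant chain that guides both, was at 40.4, 45.3 and 42.6 CPM and then at 78.6, 81.7 and 87.0 CPM and rose by 0.95 (SE 0.21, adjusted p 0.0147). Cd74 was called in 2 of the 6 fits without a library and not with offsets for GC content (adjusted p 0.0591), and the list had 2 calls without 3-week replicate 2 or 6-week replicate 1. The H2 genes belong to a family with similar sequences, and how reads between them were assigned is not given. The macrophage genes Csf1r (-0.08), C1qa (0.05) and Adgre1 (-0.35, adjusted p 0.232) were not called. Of the 14 macrophage markers edgeR called 0, with 2 lower at an unadjusted p under 0.05 and 1 lower by DESeq2. Their median was -0.26, and 12 had negative values. In 4 of them the 6-week values lay wholly lower (against 13.1% of all genes), and in 0 wholly higher. The B cell marker Cd79a was at 0.802 to 1.07 CPM and then at 1.04 to 1.54 CPM. Of 35 interferon-induced genes 3 fell (8.57%); Rsad2, viperin, was at 8.59, 8.68 and 9.06 CPM and then at 4.51, 4.36 and 4.98 CPM, and fell by 0.93 (SE 0.18, adjusted p 0.0051).

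The largest rise among the named genes was that of Cpxm2, a secreted carboxypeptidase-like protein (chr7:132032687-132154739, minus strand). It was at 2.18, 1.37 and 2.28 CPM at 3 weeks and at 22.6, 14.9 and 13.1 CPM at 6 weeks. The groups were far apart, and the log2 fold change was 3.13 ± 0.34 (SE, adjusted p 0.000198). Ogdhl, a relative of oxoglutarate dehydrogenase, was at 0.243, 1.09 and 0.633 CPM and then at 2.31, 3.76 and 3.83 CPM, and rose by 2.32. Ptgds, a prostaglandin D2 synthase, was at 88.2, 112 and 128 CPM and then at 352, 249 and 316 CPM, without overlap (adjusted p 0.0011). Clu, the extracellular chaperone clusterin, was at 176, 163 and 218 CPM and then at 394, 382 and 370 CPM, and rose by 1.04. Xdh, which makes uric acid from xanthine, rose by 0.85, and Doc2g by 1.08. Inmt, a methyltransferase of small amines, rose by 1.75, Scgb1c1 by 1.67, Ccdc159 by 1.52 and Gnb3 by 1.41. All of these were called without any 1 library. Some further large increases were not: D7Ertd443e rose by 1.98 (2 of 6 fits), Fam131c by 1.52 (1 of 6), Nudt17 by 1.46 (1 of 6, and adjusted p 0.0604 with length offsets and 0.0574 with GC offsets) and Acsl6 by 1.32 (none of 6, and adjusted p 0.0821 with the replicate block). Hsd11b1, which regenerates active glucocorticoid, rose by 0.98; it lies within Lamb3 on the other strand.

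The same interval in the mice labelled KO was set beside WT, since the 2 comparisons share no library. The KO labels rest on the titles: Csrp3 was at 1022 ± 81.6 CPM (SD, n = 3) in WT and 1783 ± 819 CPM in the libraries labelled KO at 3 weeks, so its counts do not show the loss. Of the 464 genes that rose in WT, 133 were called higher in KO (28.7% of the WT calls and 15.8% of the 843 KO calls, 5.34% of all genes), and 7 were called lower. Of the 354 that fell in WT, 174 were called lower in KO (49.2% of the WT calls and 17.7% of the 986 KO calls, 6.25% of all genes), and 1 was called higher. The mitosis genes fell there too: 40 of 41 were called lower and 1, Cenpa, higher, with a median of -2.53, and edgeR called 0 members in the test of the difference between genotypes. That test, an interaction term, called 251 genes (1.59%): 78 moved more upwards in KO (0.494%) and 173 more downwards (1.1%). Of the WT-called genes, 59 were among them.

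Some genes of the metabolic and matrix lists differed by that test. Of the oxidative phosphorylation genes, 9 of 55 were called as moving more downwards in KO (against 1.1% of all genes). In KO itself 6 of the 55 were called lower (against 6.25% of all genes), and the median was -0.21. Cox7a1 changed by 0.79 in WT and -0.22 in KO, a difference of -1.02 (SE 0.22, adjusted p 0.0191), which was called in 7 of the 12 fits without 1 library (adjusted p 0.0652 without WT 6-week replicate 1). Xdh changed by 0.85 in WT and -0.35 in KO, a difference of -1.21 ± 0.20 (SE, adjusted p 0.00459). Collagen genes had a median of -0.05 in KO, with 11 of 39 called lower and 4 higher (against 6.25% and 5.34% of all genes). Their sum in KO was lower at 6 weeks, as in WT: 8155 to 9557 CPM at 3 weeks and 5815 to 7231 CPM at 6 weeks, without overlap. In the test of the difference 2 of the 39 were called as moving more upwards and 1 more downwards (against 0.494% and 1.1% of all genes). Mfap4 changed by -1.06 in WT and 0.58 in KO, a difference of 1.65 ± 0.28 (SE, adjusted p 0.00506). Fkbp5, a chaperone partner of the glucocorticoid receptor, was at 17.5, 24.8 and 23.1 CPM and then at 42.2, 27.6 and 27.4 CPM in WT, and at 82.3, 62.7 and 76.7 CPM and then at 12.2, 14.6 and 17.3 CPM in KO. In WT it did not overlap but was not called (0.57, adjusted p 0.0868), and the difference was -2.90 ± 0.27 (SE, adjusted p 3.73e-05). Mthfd2, a mitochondrial enzyme of one-carbon metabolism, changed by -0.86 in WT and 1.87 in KO, a difference of 2.73 ± 0.38 (SE, adjusted p 0.0014). Xdh, Mfap4, Fkbp5 and Mthfd2 differed in all 12 fits that each left out 1 of the 12 libraries.

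**Figure D5:**
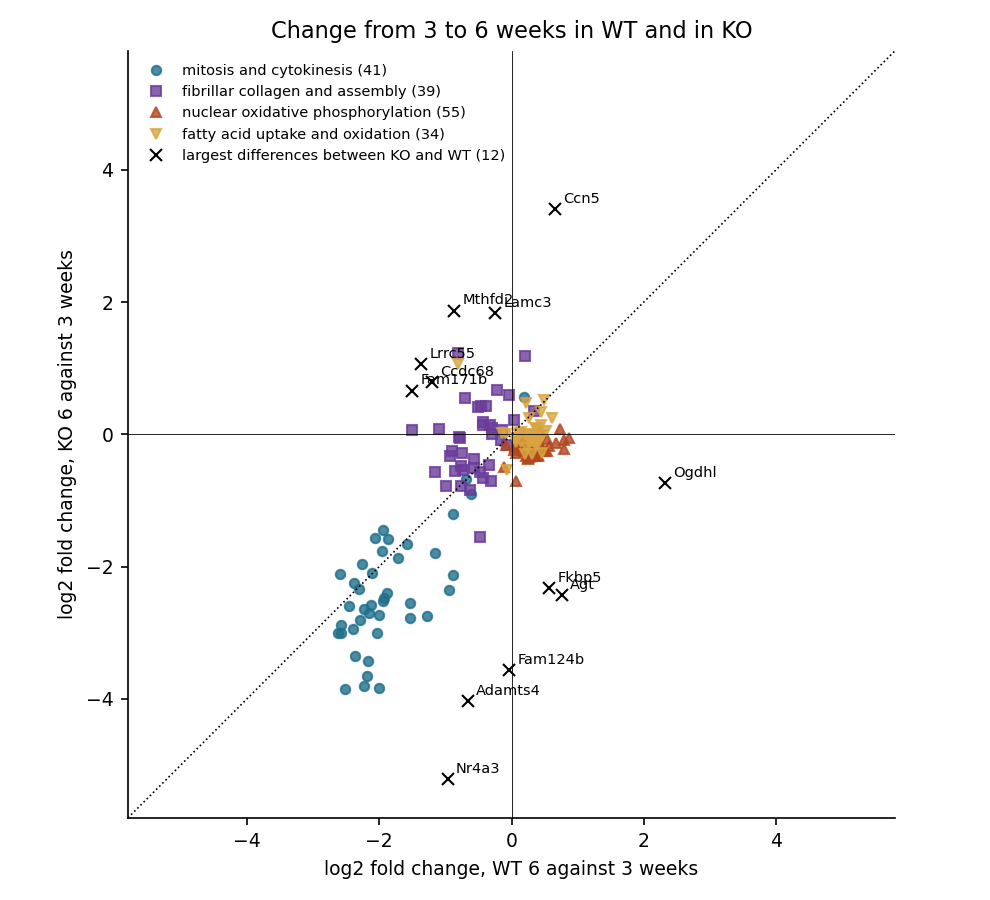
Log2 fold change from 3 to 6 weeks in the libraries labelled KO (vertical) against WT (horizontal); each point is 1 gene of 4 lists, crosses are the 12 named genes with the largest called differences, and the dotted line marks equal change. Mitosis genes lie mostly in the lower left, with medians of -2.03 in WT and -2.53 in KO, while oxidative phosphorylation genes have medians of 0.31 in WT and -0.21 in KO.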

How the data were processed

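The 18 libraries are RNA-seq of total RNA from the left ventricle mid wall. The deposited values are raw counts of reads per gene, 1 table of 49315 genes per library. Per the submitters' processing notes the authors used Trimmomatic 0.36, STAR 2.5.2b and featureCounts of Subread 1.5.2 on GRCm38; the annotation release, strand setting and treatment of multi-mapping reads are not given in the sources used here. Of 102 genes checked for overlap, 40 overlap a gene on the other strand.

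Totals ran from 14980968 to 20384316 counts at 3 weeks and from 19118774 to 23001047 at 6 weeks in WT. Gene IDs were matched to symbols (48970 of 49315), and 15778 genes passed filterByExpr (minimum count 10, minimum total 15). All 18 libraries entered edgeR 4.0.16 in R 4.3.3 with TMM scaling and a quasi-likelihood fit with 1 mean for each genotype and age; CPM of single genes are relative to the counts of tested genes, and sums over lists to all counts; adjusted p-values are Benjamini-Hochberg over all genes tested, with a threshold of 0.05, and the SE of a log2 fold change is its size divided by the root of the F statistic. Whether the KO change differed was tested as an interaction in the same fit. No pair of replicates agreed within sampling noise (chi-square per degree of freedom 7.04 to 24.6). The steps were tested on simulated data.

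Named genes were, those called without overlap, with a mean of 2 CPM or more at 1 of the ages and a symbol other than a predicted locus, the 12 largest changes in each direction, the 10 largest of at least 50 CPM, and the 6 largest differences in each direction between KO and WT. List members were also named, and results on a few genes are not reported here; Xdh, Cox7a1, Ndufa3, Tnni3, Idh2 and Mfap4 in the KO comparison were chosen after their values were seen. The members and lists were chosen with earlier results of these data known. In WT, libraries with the same number deviated together (correlations 0.180, 0.125 and 0.105 over genes), which by the rule used here pairs them. In KO they did not (-0.119, -0.0420 and 0.0966). The reported fit had no term for this pairing, which entered only as an alternative. Alternatives were the replicate block, leaving out each library, RLE size factors, no filter, DESeq2 1.42.0, limma voom 3.58.1, WT libraries alone, mitochondrially encoded genes left out, and offsets for length or GC content.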

Additional observations from a re-analysis of the deposited data

Results flagged for a closer look

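For 18 of the named genes the change from 3 to 6 weeks differed between the mice labelled KO and WT by the interaction term of the edgeR fit at an adjusted p under 0.05. Of these, 12 were named for having the largest called differences and 6 after their values were seen, so this number follows from the choice. Values are KO minus WT on the log2 scale. The groups rest on the labels, and no explanation was weighed.

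Of the genes that moved more downwards in KO, the orphan nuclear receptor gene Nr4a3 differed by -4.25, with -0.97 in WT and -5.21 in KO (adjusted p 0.0287). Fam124b differed by -3.54, the matrix protease Adamts4 by -3.37 and angiotensinogen, Agt, by -3.2. Ogdhl, which rose in WT by 2.32, had -0.74 in KO and differed by -3.06. Fkbp5 differed by -2.9, from 0.57 in WT to -2.33 in KO. Xdh differed by -1.21, Cox7a1 by -1.02, Ndufa3 by -0.884, Tnni3 by -0.713 and Idh2 by -0.632; these 5 were called higher in WT.

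Of the genes that moved more upwards in KO, Mfap4 differed by 1.65, with -1.06 in WT and 0.58 in KO. Ccdc68 differed by 2, the laminin chain Lamc3 by 2.07, Fam171b by 2.17 and Lrrc55 by 2.43. Mthfd2 differed by 2.73, with -0.86 in WT and 1.87 in KO, and the matricellular gene Ccn5 by 2.75, with 0.66 in WT and 3.41 in KO.

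Fkbp5, Xdh, Agt, Mfap4, Mthfd2 and Ccn5 were called in all 12 fits that left out 1 library. Ccdc68 and Lrrc55 were called in 2 of them, Ndufa3 and Idh2 in 3, Tnni3 in 4, Nr4a3 and Fam171b in 5, Fam124b in 6, Cox7a1 in 7, Lamc3 in 8, Adamts4 in 10 and Ogdhl in 11. With the replicate number as a block, the adjusted p was 0.0656 for Nr4a3, 0.0571 for Fam124b, 0.0629 for Adamts4, 0.0612 for Ccdc68 and 0.0762 for Lrrc55. By limma voom it was 0.174 for Nr4a3, 0.0917 for Ccdc68, 0.0573 for Lrrc55, 0.0554 for Lamc3 and 0.0519 for Adamts4, and with GC offsets 0.0674 for Tnni3 and 0.051 for Idh2.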

How the results depend on the processing

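The number of genes called from 3 to 6 weeks in WT was 818 as reported. It was 1404 with no filter on low counts (771 higher, 633 lower), 1300 by DESeq2 (746 higher, 554 lower), 1495 with only the 6 WT libraries of 3 and 6 weeks (619 higher, 876 lower), 1811 with only the 9 WT libraries (870 higher, 941 lower) and 208 when a change of over 2-fold was also asked for. The number whose change differed between KO and WT was 251 as reported, 880 with no filter and 642 by DESeq2. The causes of these shifts were not tested. Oxidative phosphorylation genes called higher numbered 12 as reported, 20 by DESeq2, 7 with only the 6 WT libraries and 7 with length offsets. The length and GC offsets were chosen after seeing the data.

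Leaving out each library in turn gave 199 to 1313 genes called in WT, 88 to 728 higher and 107 to 585 lower, and 84 to 426 differing between KO and WT (84 without WT 6-week replicate 3, 426 without WT 3-week replicate 3). The same fits called 22 to 32 mitosis genes, 8 to 13 collagen genes, 4 to 22 oxidative phosphorylation genes, 1 to 8 fatty acid genes and 4 to 8 ketone and branched-chain genes. With the replicate number as a block, 683 genes were called in WT (407 higher, 276 lower) and 221 differed between KO and WT. In the elastic matrix list, 6 genes were called lower with the block and 6 with GC offsets, against 7 as reported. Not every named gene was followed singly through the alternatives. Among the named genes that were, the block ended the WT calls of Col5a2 and Acsl6 and the difference calls of 5 genes given above, and no other. Among the same named genes, limma voom ended 5 difference calls and GC offsets 2, and the WT calls that GC or length offsets ended are given with their genes above. None of the named genes followed singly changed direction in any alternative. With only the 6 WT libraries, 16 DNA replication genes, 9 imprinted genes and 12 elastic matrix genes were called lower, against 6, 4 and 7 as reported.

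Low counts limit the smaller spindle genes: Aspm at 6 weeks stood at 0.330 to 0.630 CPM. With 3 libraries an age, a p that misses the threshold does not show that a gene did not change.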

Other observations

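Among other lists, few genes were called. The shares to set beside them are 2.94% of all genes called higher and 2.24% lower. Of 26 cardiac transcription factors, 1 rose and 1 fell (3.85% each). Hopx, a homeodomain protein of the maturing heart, rose by 0.63 and Mef2c fell by 0.53. Both were called in 3 of the 6 fits without 1 library. Hopx was at 244, 218 and 220 CPM at 3 weeks and at 386, 304 and 363 CPM at 6 weeks. Of 23 glucocorticoid and steroid hormone genes, 2 rose (8.70%), Hsd11b1 and the transcription factor Klf15 (Klf15 in 1 of the 6 fits without 1 library). Of 22 heat shock genes, 2 rose (9.09%) and 1 fell (4.55%). The small heat shock protein gene Hspb8 rose by 0.50, its partner Bag3 by 0.48, and the regulator Hsf2 fell by 0.48. These were called in 1, 2 and 1 of the 6 fits without 1 library, and with length offsets no gene of the list was called higher. Of 53 cytosolic ribosomal protein genes, 5 rose (9.43%, median 0.26), with 0 to 14 called higher in the fits without 1 library and 2 with length offsets. Scd2, a fatty acid desaturase, was at 45.3, 56.8 and 50.5 CPM and then at 33.5, 29.0 and 27.9 CPM; it fell by 0.76 and was called without any 1 library.

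Some genes that rose from 3 to 6 weeks were lower again at 10 weeks, in a comparison that shares the 6-week libraries. Bcat2 was at 235, 210 and 233 CPM at 6 weeks and at 85.6, 96.0 and 99.5 CPM at 10 weeks. Myom2 stood at 1038, 1401 and 1047 CPM at 10 weeks, of which 1401 CPM was above its 3-week range. Cox8b stood at 577, 613 and 640 CPM, within its 3-week range. These genes were chosen after their values were seen. Among whole lists in WT, oxidative phosphorylation genes summed to 41955 to 46508 CPM at 3 weeks and 48338 to 62604 CPM at 6 weeks. At 10 weeks they summed to 42928 to 48190 CPM. The ketone and branched-chain sums at 10 weeks (4197 to 4313 CPM) lay within their 3-week range (4032 to 4341 CPM). The fatty acid sums (23554 to 24861 CPM) and citrate cycle sums (20295 to 23007 CPM) at 10 weeks lay above their 3-week ranges.

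On the X chromosome 2 of 494 tested genes were called higher (0.405%) and 13 lower (2.63%), against 2.94% and 2.24% of all genes.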
